A study of Mus musculus with 12 samples.

Results

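The 4 ligands and 2 receptors of the platelet-derived growth factor (PDGF) family, Pdgfa, Pdgfb, Pdgfc, Pdgfd, Pdgfra and Pdgfrb, were followed through the livers of CCl4-injured mice. They were taken by name from a table of 21936 mouse genes, and each name stood on 1 entry. Carbon tetrachloride (CCl4) kills hepatocytes and, given repeatedly, scars the liver. Male C57BL/6 mice (C57BL/6J in the study's methods), bought at 6 weeks of age, all received it intraperitoneally in olive oil (1 mL/kg, 2 doses a week over 8 weeks). The liver fibrosis group (LFG) was killed then. Mice of the regression group (REG) were next given 200 µL of PBS through the tail vein, 2 times weekly for 4 weeks, and those of the hADMSCs-Exo group the same volume with 250 µg of exosomes, vesicles released by cultured human adipose mesenchymal stem cells. LFG therefore differs from both other groups in age and in time since CCl4 as well as in injection, and no library of an uninjured liver was analysed here. Each group had 3 libraries, named below by group and replicate, and the columns headed MSC_E were taken as those of hADMSCs-Exo. The labels do not say that 1 library is 1 mouse, so the p-values measure the spread between these libraries, which may in part be technical.

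PDGFs are paired growth factor chains. A and B chains are cut inside the cell and secreted in active form, whereas C and D chains carry a CUB domain that must be cut off outside the cell, for instance by tissue plasminogen activator (Plat) for the C chain and by urokinase (Plau) or matriptase (St14) for the D chain. The receptor tyrosine kinase PDGFRα binds A, B and C chains and PDGFRβ binds B and D chains. In the injured liver hepatic stellate cells carry PDGFRβ and divide and migrate in response to PDGF-B, while platelets, macrophages, endothelium and bile duct cells are known sources of ligand.

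All 6 are protein-coding genes, and their positions in the table are those of the GENCODE annotation of GRCm38. Pdgfa (ENSMUSG00000025856) lies at chr5:138976014-138997370 on the minus strand and Pdgfra (ENSMUSG00000029231) at chr5:75152292-75198215 on the plus strand. Pdgfb (ENSMUSG00000000489) is at chr15:79995874-80014977, minus, Pdgfc (ENSMUSG00000028019) at chr3:81036416-81214040, plus, and Pdgfd (ENSMUSG00000032006) at chr9:6168584-6378850, plus. The summed exon length by which FPKM was divided ran from 3119 bases for Pdgfa to 10024 for Pdgfra. Exons of Pdgfa overlap 1 other annotated gene (6330403L08Rik, antisense), those of Pdgfc 1 (Gm16000, antisense) and those of Pdgfra 3 (Gm42802, antisense, Gm42803 and Mir7025). None of these 5 is in the count table, and the strand setting of the counting is not given in the sources used here, so reads from them cannot be told from those of the member.

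Promoter windows of RefSeq (GRCm38.p6, 250 bases before to 50 after a start) matched 4 of the 6 genes. They are printed as a description of sequence, and any link to the levels given below was not tested. Pdgfb and Pdgfrb had no matched window. Capitals mark matches on either strand to 4 motifs, and no matches overlapped. The letters TATAAA stand for the TATA motif. The motif named after its letters CCAAT was also searched. For Sp1-type sites, here called GC boxes, the search used GGGCGG and thus its reverse complement. The fourth, TGANTCA, is the AP-1 motif. The windows are chr5:138994895-138995194 on the minus strand (Pdgfa), chr3:81036166-81036465 on the plus strand (Pdgfc), chr9:6168236-6168535 on the plus strand (Pdgfd) and chr5:75152001-75152300 on the plus strand (Pdgfra).
Pdgfa: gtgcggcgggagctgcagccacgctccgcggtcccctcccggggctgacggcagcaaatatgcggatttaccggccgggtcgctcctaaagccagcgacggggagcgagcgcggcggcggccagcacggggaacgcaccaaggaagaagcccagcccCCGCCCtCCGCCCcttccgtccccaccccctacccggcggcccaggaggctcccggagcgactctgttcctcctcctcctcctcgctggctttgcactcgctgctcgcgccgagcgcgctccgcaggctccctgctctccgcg
Pdgfc: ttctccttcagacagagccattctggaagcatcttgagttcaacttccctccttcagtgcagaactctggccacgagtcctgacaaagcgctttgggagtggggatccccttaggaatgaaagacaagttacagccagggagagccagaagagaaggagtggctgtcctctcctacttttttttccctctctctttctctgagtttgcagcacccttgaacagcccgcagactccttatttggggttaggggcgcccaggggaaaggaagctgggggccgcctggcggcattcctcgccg
Pdgfd: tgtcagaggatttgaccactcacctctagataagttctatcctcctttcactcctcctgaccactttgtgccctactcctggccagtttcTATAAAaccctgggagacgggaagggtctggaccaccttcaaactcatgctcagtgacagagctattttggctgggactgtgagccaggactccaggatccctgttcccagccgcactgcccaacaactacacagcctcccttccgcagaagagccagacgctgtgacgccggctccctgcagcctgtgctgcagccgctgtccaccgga
Pdgfra: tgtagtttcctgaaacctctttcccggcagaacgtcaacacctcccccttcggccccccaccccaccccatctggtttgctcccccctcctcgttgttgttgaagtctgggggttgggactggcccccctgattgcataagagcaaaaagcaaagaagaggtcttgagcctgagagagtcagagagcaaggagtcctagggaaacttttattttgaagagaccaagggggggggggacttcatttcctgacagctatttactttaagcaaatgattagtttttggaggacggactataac
The Pdgfa window was the richest in G and C of the 4, at 73.3%, with 37 CpG and 2 GC boxes, and 94.5% of the 32851 windows of all genes had a lower share. The other Pdgfa window, at chr5:138994232-138994531, had 67.0% and 1 GC box. The Pdgfc, Pdgfd and Pdgfra windows held 55.0%, 56.7% and 51.0%, near the median of 52.7%, and 8, 8 and 5 CpG. Pdgfd had a TATA motif at position -160, where -1 is the base before the start, and the windows of Pdgfc and Pdgfra held none of the 4 motifs. Of all windows, 13.6% held TATAAA, 37.4% CCAAT, 35.7% GGGCGG and 7.81% TGANTCA. A match describes the letters of the window and is no evidence of binding.

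Total counts ran from 13837445 to 19840917 a library. LFG 3 stood apart from its group: it had the fewest total counts (13837445) and the fewest detected genes (13924, against 14539 to 15248 elsewhere). Its counts differed from those of LFG 1 and LFG 2 by a chi-square per gene of 299 and 228, where the closest replicates (REG 2 and REG 3) differed by 27. No sequencing batch is named in the labels. Results against LFG are therefore given with and without LFG 3. The livers were recognisable by all 8 hepatocyte markers, which were present in every library at a summed 85089 to 176744 CPM (counts scaled to library size by TMM). All 10 endothelial and all 10 macrophage markers were also detected throughout, whereas the platelet and megakaryocyte markers Gp1ba, Gp9, Ppbp and Treml1 were each at 0 in at least 1 library. Liver tissue is a mixture, and a lower level of a gene could come from fewer cells of a type or from less RNA in each, which bulk libraries cannot tell apart.

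Per unit of length, Pdgfa and Pdgfrb were the most abundant members. Pdgfrb had the highest FPKM (reads scaled by exon length and library size) in LFG 1 and LFG 2, and Pdgfa in the other 7 libraries. In hADMSCs-Exo the order of mean FPKM was Pdgfa (2.95 ± 0.79, SD, n = 3), Pdgfrb (1.27 ± 0.0795), Pdgfc (0.842 ± 0.0869), Pdgfb (0.674 ± 0.0204), Pdgfd (0.432 ± 0.183) and Pdgfra (0.39 ± 0.137). Every neighbour in that order was separated by library except Pdgfd and Pdgfra, whose ranges (0.25 to 0.616 and 0.249 to 0.521) overlapped. The order depends on the exon lengths: by CPM, Pdgfra (2.43 to 5.18) was above Pdgfd (0.77 to 1.93) in hADMSCs-Exo. In REG, Pdgfa (3.84 ± 1.14) and Pdgfrb (2.07 ± 0.446) again led with no overlap, and the other 4 genes lay together between 0.305 and 1.06 FPKM. In LFG the order of means was Pdgfrb (3.57 ± 2.96), Pdgfa (3.48 ± 0.207), Pdgfc (1.91 ± 1.35), Pdgfra (1.74 ± 1.52), Pdgfd (1.37 ± 1.09) and Pdgfb (0.998 ± 0.786). Neighbours in it overlapped except Pdgfa and Pdgfc, whose FPKM ran from 3.27 to 3.68 and from 0.355 to 2.77. Pdgfrb alone spanned 0.29 to 6.06 FPKM in LFG.

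**Figure D1:**
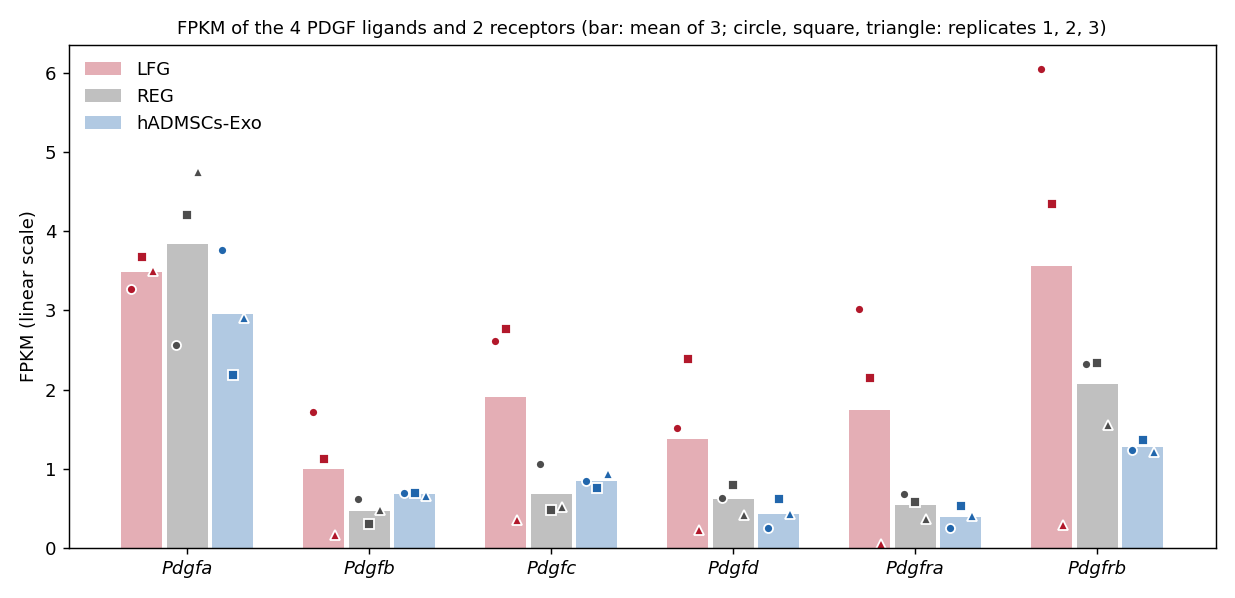
FPKM (vertical axis, linear) of the 6 genes in LFG, REG and hADMSCs-Exo; bars are means of 3 libraries and circles, squares and triangles are replicates 1, 2 and 3. Pdgfa lies between 2.18 and 4.75 in all libraries, while Pdgfrb runs from 0.29 to 6.06 within LFG.

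Of the ligands, Pdgfa, whose product acts through PDGFRα, had 7.41, 10.6 and 13.5 CPM in LFG 1, 2 and 3, 8.19, 14.2 and 15.6 in REG 1, 2 and 3 and 11.4, 6.75 and 9.7 in hADMSCs-Exo 1, 2 and 3. Its 3 groups overlapped, and it was the only member whose highest LFG value was in LFG 3. Pdgfb, the ligand of both receptors, had 5.18, 4.3 and 0.805 CPM in LFG, 2.65, 1.37 and 2.07 in REG and 2.78, 2.83 and 2.9 in hADMSCs-Exo. The hADMSCs-Exo libraries lay within 1.04-fold of each other and just above all REG libraries, whereas LFG held both the highest and the lowest values (6.43-fold apart). With 9 to 123 counts a library, Pdgfb was among the least covered members.

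Pdgfc, whose chain needs cutting before it activates PDGFRα, had 9.64, 13 and 2.24 CPM in LFG, 5.54, 2.64 and 2.76 in REG and 4.2, 3.79 and 5.04 in hADMSCs-Exo. LFG 1 and LFG 2 were above all other libraries and LFG 3 below all of them. Pdgfd, the ligand that acts through PDGFRβ, had 3.45, 6.93 and 0.894 CPM in LFG, 2.03, 2.69 and 1.38 in REG and 0.77, 1.93 and 1.45 in hADMSCs-Exo. Here too LFG 1 and LFG 2 were highest, while LFG 3 lay among the hADMSCs-Exo libraries and REG and hADMSCs-Exo overlapped. Pdgfd had 10 to 124 counts a library.

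Of the receptors, Pdgfra had 22, 19.8 and 0.626 CPM in LFG (522, 354 and 7 counts), 6.96, 6.32 and 3.87 in REG and 2.43, 5.18 and 4.28 in hADMSCs-Exo. LFG thus spanned 35.1-fold, the widest range of any member in any group, with REG and hADMSCs-Exo between its extremes and overlapping each other. Pdgfrb (ENSMUSG00000024620, chr18:61045150-61085061 on the plus strand), the receptor of activated stellate cells, had 24.1, 21.9 and 1.97 CPM in LFG (573, 392 and 22 counts), 13.1, 13.8 and 8.97 in REG and 6.63, 7.41 and 7.12 in hADMSCs-Exo. All 3 hADMSCs-Exo libraries were below all 3 REG libraries, and LFG 1 and LFG 2 were above both groups with LFG 3 below both. In 5 of the 6 members LFG 1 and LFG 2 had the highest values of all 9 libraries, and in 4 of them (Pdgfb, Pdgfc, Pdgfra and Pdgfrb) LFG 3 had the lowest.

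**Figure D2:**
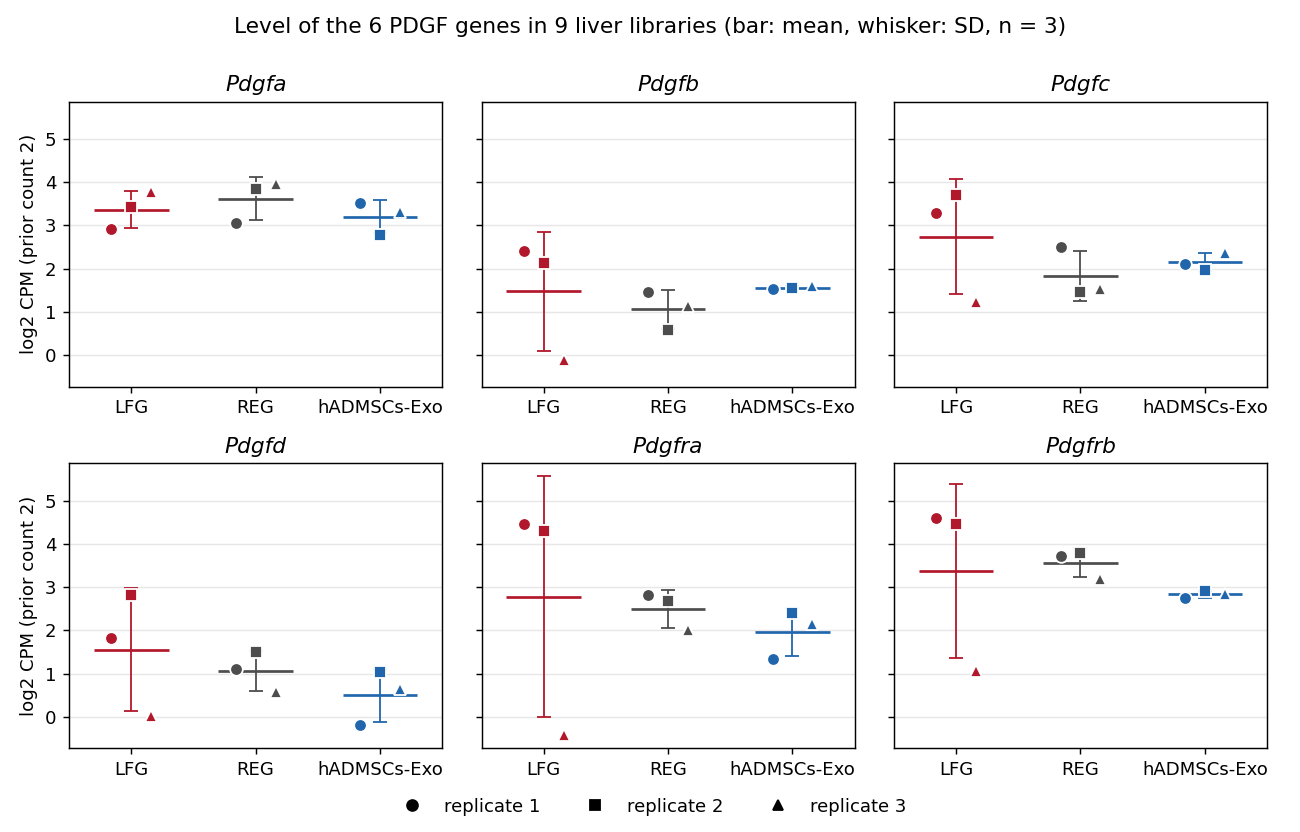
Log2 CPM (vertical axis, prior count 2) of each gene in the 3 groups; symbols are libraries, horizontal bars means and whiskers SD (n = 3). The whiskers of LFG are the longest for every member but Pdgfa, because LFG 3 (red triangle) lies far below LFG 1 and LFG 2.

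The comparison of hADMSCs-Exo with REG asks what exosomes added to the time without CCl4, and it uses no LFG library. Pdgfrb was 1.7-fold lower in hADMSCs-Exo (log2 fold change -0.76, standard error 0.21, 95% interval -1.24 to -0.28), with no overlap of libraries. Its unadjusted p was 0.00621 and its adjusted p 0.402 (edgeR, Benjamini-Hochberg over 12337 genes), so it did not pass as differentially expressed, for which an adjusted p under 0.05 and a log2 change of 1 or more in size were required. None of the 6 members passed, beside 0.00811% of all genes (1 gene). DESeq2 passed 67 genes and limma voom 3, and neither passed a member. Pdgfrb was the only member with an unadjusted p under 0.05, 1 of 6 beside 10.0% of all genes (5.34% higher and 4.69% lower in hADMSCs-Exo).

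Pdgfra was lower by a similar size with a wider error (-0.53, standard error 0.35, adjusted p = 0.63 by edgeR), as was Pdgfd (-0.55, 0.43, adjusted p = 0.684). Pdgfa was lower by -0.45 on the log2 scale (0.28, adjusted p = 0.617). Pdgfb (0.48, 0.32, adjusted p = 0.64) and Pdgfc (0.25, 0.35, adjusted p = 0.828) were on the higher side. The values of the 2 receptors and of Pdgfa and Pdgfd were thus below zero and those of Pdgfb and Pdgfc above it, and the intervals of all but Pdgfrb included zero. The groups did not overlap for 2 of 6 members, Pdgfrb (lower) and Pdgfb (higher), where 15.5% of all genes did not overlap and 7.47% did so on the lower side. A permutation test over libraries, two-sided and exact, gave p = 0.1 for each, the smallest possible with 3 libraries against 3. The median of the 6 log2 fold changes was -0.49, and that of all genes 0.008. REG 1 decided the count at the unadjusted threshold: without it 3 members had a p under 0.05, Pdgfa (-0.67, adjusted p = 0.415), Pdgfc (0.7, adjusted p = 0.449) and Pdgfrb (-0.68, adjusted p = 0.397, all by edgeR). With all 9 libraries in one fit the count was 0.

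Against LFG, the point estimates of all 6 members were below zero in hADMSCs-Exo and none passed. Pdgfra differed by -1.86 (standard error 1.01), Pdgfd by -1.46 (0.75), Pdgfrb by -1.21 (0.77), Pdgfc by -0.95 (0.59), Pdgfb by -0.3 (0.63) and Pdgfa by -0.18 (0.32). For Pdgfb the mean log2 CPM went the other way, at 1.56 in hADMSCs-Exo and 1.48 in LFG. All groups overlapped, and adjusted p ran from 0.808 to 0.959 (edgeR over 12489 genes). No gene passed in the whole table (0%) by edgeR, 60 passed by DESeq2 and 1 by limma voom, and 5.98% of genes had an unadjusted p under 0.05, none of the members among them. By limma voom, 4 members had an unadjusted p under 0.05. The median of the members was -1.08, and that of all genes -0.059. Without LFG 2 the estimates for Pdgfd and Pdgfc shrank to -0.69 and -0.48, and with the replicate number as a block that for Pdgfra was -1.24.

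Without LFG 3 the same comparison passed 3 of 6 members, all lower in hADMSCs-Exo and all with libraries that did not overlap. Pdgfra was 5.22-fold lower (log2 fold change -2.38, standard error 0.31, adjusted p = 0.0185 by edgeR), Pdgfrb 3.24-fold lower (-1.69, 0.18, adjusted p = 0.0108) and Pdgfc 2.57-fold lower (-1.36, 0.26, adjusted p = 0.0302). Pdgfd (-1.89, adjusted p = 0.0599) and Pdgfb (-0.73, adjusted p = 0.15) did not pass, and Pdgfa was on the higher side (0.065, adjusted p = 0.906). The share has to be read against a broad difference: of 12955 genes 5.97% passed and 4.50% passed on the lower side, 28.5% had an unadjusted p under 0.05 (5 of 6 members), and for 25.6% the hADMSCs-Exo libraries all lay below LFG 1 and LFG 2 (5 of 6 members). The median of the members was -1.53, that of all genes 0.0041. No other alternative run for this comparison passed a member.

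REG against LFG uses the same LFG libraries, so the 2 comparisons are not independent of each other. With all libraries Pdgfra differed by -1.3 (standard error 0.97), Pdgfc by -1.17 (0.65), Pdgfd by -0.88 (0.69), Pdgfb by -0.75 (0.67), Pdgfrb by -0.41 (0.75) and Pdgfa by 0.28 (0.34). For Pdgfrb the mean log2 CPM went the other way, at 3.57 in REG and 3.37 in LFG. None of the 6 passed (adjusted p 0.525 to 0.854, edgeR over 12517 genes), the groups overlapped for all, and none had an unadjusted p under 0.05, beside 11.3% of all genes. By edgeR 0 genes (0%) passed in the table, by DESeq2 240 with no member, and by limma voom with library weights 1285, with Pdgfb (-1.28, adjusted p = 0.0445), Pdgfc (-1.86, adjusted p = 0.0187) and Pdgfra (-1.66, adjusted p = 0.0496) among them. The median of the members was -0.81 and that of all genes -0.068. Without LFG 2 the estimates for Pdgfd and Pdgfc shrank to -0.11 and -0.7, and that for Pdgfra was -0.82 without LFG 1 and -0.6 with the replicate number as a block.

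Without LFG 3, Pdgfra was 3.55-fold lower in REG (-1.83, standard error 0.27, adjusted p = 0.0149 by edgeR) and Pdgfc 3.01-fold lower (-1.59, 0.36, adjusted p = 0.0303), and these 2 passed. Pdgfrb had an adjusted p of 0.0371 with a log2 fold change of -0.9, short of the fold threshold. Pdgfb (-1.18, adjusted p = 0.058) and Pdgfd (-1.3, adjusted p = 0.0711) did not pass, nor did Pdgfa (0.55, adjusted p = 0.242). Of 12948 genes 10.7% passed and 6.94% passed on the lower side, 37.3% had an unadjusted p under 0.05 (5 of 6 members) and 29.8% had all REG libraries below LFG 1 and LFG 2 (5 of 6 members). The median of the members was -1.24, that of all genes -0.0051.

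**Figure D3:**
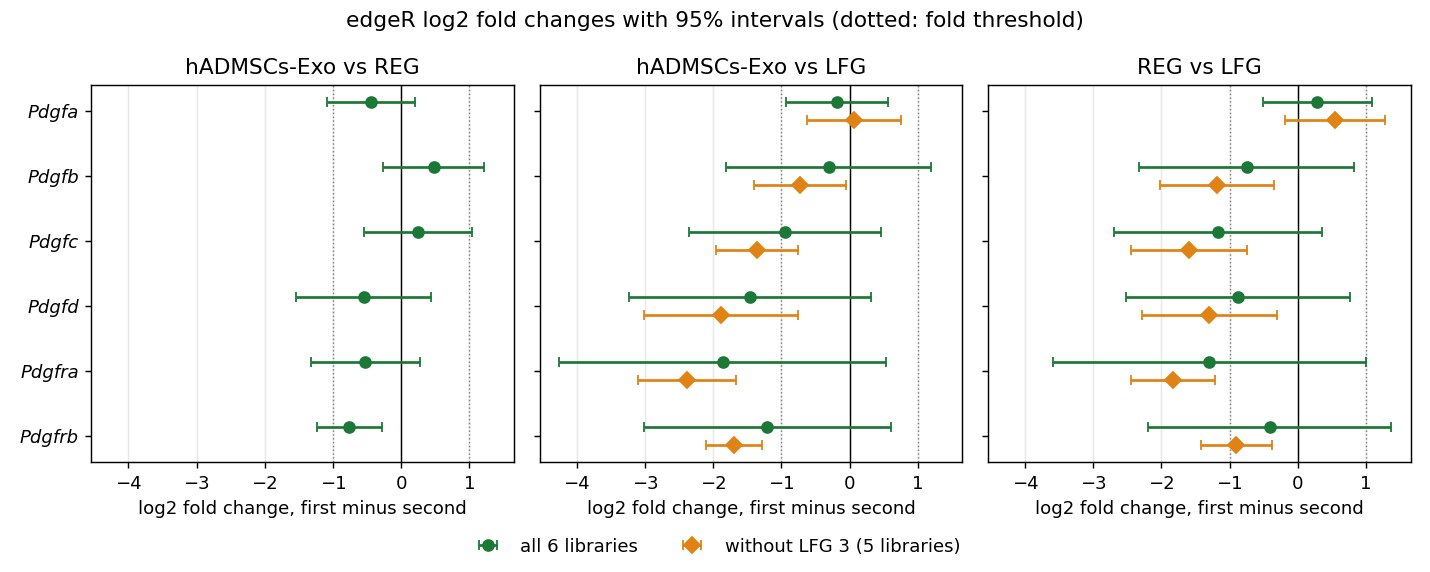
Log2 fold changes (horizontal axis, first group minus second) of the 6 genes by edgeR with 95% intervals; dotted lines mark a change of 1. Circles use all 6 libraries and diamonds leave out LFG 3: intervals of Pdgfra shorten from -4.26 to 0.54 to -3.1 to -1.67 for hADMSCs-Exo against LFG.

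Within a library the ratio of the receptors needs no scaling between libraries. Per kilobase, Pdgfrb exceeded Pdgfra by 1.01, 1.02 and 2.52 on the log2 scale in LFG 1, 2 and 3, by 1.78, 2.0 and 2.08 in REG and by 2.32, 1.39 and 1.6 in hADMSCs-Exo. Per kilobase, Pdgfrb was therefore the higher in all 9 libraries, by 2.01-fold in LFG 1 to 5.75-fold in LFG 3, where Pdgfra had only 7 counts. The size of this excess depends on the summed exon lengths, 5478 bases for Pdgfrb and 10024 for Pdgfra. A transcript shorter than that sum would make the value per kilobase too low. Before division by length, LFG 1 had 573 counts of Pdgfrb and 522 of Pdgfra. The mean log2 ratio was 1.52 ± 0.87 (SD, n = 3) in LFG, 1.96 ± 0.16 in REG and 1.77 ± 0.49 in hADMSCs-Exo. All groups overlapped, and two-sided exact permutation tests gave p = 0.6 for hADMSCs-Exo against REG (difference -0.18), p = 0.6 for hADMSCs-Exo against LFG (0.26) and p = 0.4 for REG against LFG (0.44). With 3 libraries against 3 these exact permutation tests cannot go below p = 0.1, so they could not show a shift at 0.05. Without LFG 3, the ratios of LFG 1 and LFG 2 lay below those of every REG and hADMSCs-Exo library, and the differences from LFG became 0.94 for REG and 0.76 for hADMSCs-Exo (p = 0.2 for each by the same exact test, the smallest it can then give).

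Many markers of mesenchymal and other cells had estimates below zero in hADMSCs-Exo against REG, as Pdgfrb had, and their part in the results was not tested. None of these markers passed by edgeR. Gene by gene, 11 of 11 tested stellate markers had estimates below zero (median log2 fold change -0.65, 1 with an unadjusted p under 0.05), as did 6 of 7 of activated myofibroblasts (-1.19, 5), 4 of 5 of vascular smooth muscle (-1.68, 3) and 4 of 7 of portal fibroblasts and mesothelium (-0.0086, 1), beside 4.69% of all genes lower at that threshold. Outside the mesenchyme, 9 of 10 endothelial markers (-0.61, 1) and 5 of 7 cholangiocyte markers (-0.46, 1) were below zero, while 4 of 10 macrophage markers were. The summed CPM of 12 hepatic stellate cell markers was 76.8 to 203 in LFG, with LFG 3 lowest, 113 to 205 in REG and 58.1 to 159 in hADMSCs-Exo, with REG 1 highest of all and REG and hADMSCs-Exo overlapping. Of these markers, Ngfr and Gfap were at 0 in LFG 3 and Gfap in REG 1. The 9 markers of activated myofibroblasts, collagens and Acta2 among them, summed to 1182, 690 and 18.6 CPM in LFG 1, 2 and 3, to 98.5 to 184 in REG and to 27.5 to 74.4 in hADMSCs-Exo. Tagln alone of these was at 0, in all REG libraries and in hADMSCs-Exo 2 and 3. LFG 3 was thus lowest of all libraries in myofibroblast markers, as in Pdgfra and Pdgfrb, and hADMSCs-Exo was below REG with no overlap, as for Pdgfrb. The summed hepatocyte markers also did not overlap, at 122989 to 138652 CPM in hADMSCs-Exo and 166879 to 176744 in REG, although 3 of the 8 had estimates above zero and their median log2 fold change was -0.12.

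Set against the stellate markers of the same library, a scale chosen after the data had been seen, the receptors of hADMSCs-Exo and REG overlapped. The CPM of Pdgfrb was 6.38%, 8.27% and 7.93% of the summed stellate marker CPM in REG 1, 2 and 3 and 11.4%, 4.66% and 7.27% in hADMSCs-Exo 1, 2 and 3 (two-sided exact permutation test, p = 1.0). That of Pdgfra was 3.4%, 3.78% and 3.42% in REG and 4.18%, 3.26% and 4.37% in hADMSCs-Exo (p = 0.4 by the same exact test). LFG 1 and LFG 2 remained above REG on this scale, with 11.9% and 10.8% for Pdgfrb and 10.8% and 9.78% for Pdgfra, although hADMSCs-Exo 1 reached 11.4% for Pdgfrb. LFG 3 was lowest of all, with 2.56% and 0.815%.

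Markers of cells known as sources of ligand also varied, again without a test of their part. The 10 macrophage markers summed to 1899, 1457 and 181 CPM in LFG 1, 2 and 3, 591 to 1726 in REG and 1045 to 1326 in hADMSCs-Exo, and Pdgfb, too, was lowest in LFG 3. The 10 endothelial markers ran from 117 (LFG 3) to 472 (REG 1) and overlapped between all groups. The 8 platelet and megakaryocyte markers summed to 12.1 to 40.6 CPM in all libraries, and the 8 cholangiocyte markers to 50.9 (LFG 3) to 199 (LFG 1), with Cftr at 0 in LFG 3. Of the other mesenchymal lists, 6 markers of vascular smooth muscle summed to 40.2 to 102, with LFG 3 (70.5) above LFG 1 and all REG libraries (Actg2 at 0 in LFG 3, hADMSCs-Exo 1 and 2, Cnn1 in LFG 3 and hADMSCs-Exo 1) and 10 of portal fibroblasts and mesothelium to 11 to 45.6 (Gli1 at 0 in LFG 3, REG 1 and hADMSCs-Exo 1, Clec3b in hADMSCs-Exo 1).

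**Figure D4:**
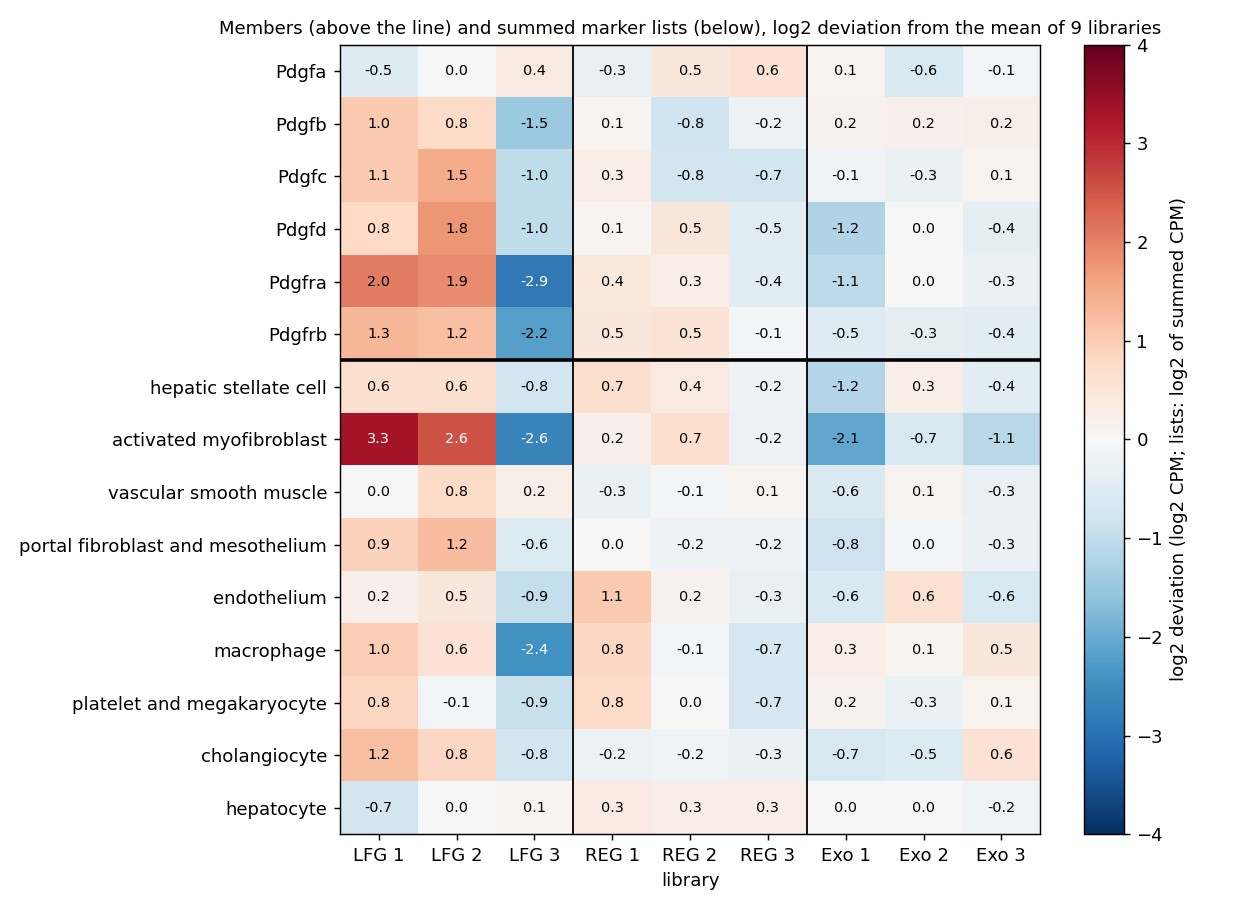
Log2 deviation of each gene (above the line) and of each summed marker list (below) from its mean over the 9 libraries, red above and blue below the mean. LFG 3 is blue for Pdgfb, Pdgfc, Pdgfd and both receptors and pale red for Pdgfa. It is also blue for every marker list except those of vascular smooth muscle and hepatocytes.

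Proteins that release or bind PDGF formed a list of 14 genes, of which 11 were tested between hADMSCs-Exo and REG. Of these, 2 had an unadjusted p under 0.05, both lower, beside 4.69% of all genes on the lower side. Sparc, a matrix protein that binds PDGF-B, had 858 to 1367 counts in REG and 270 to 621 in hADMSCs-Exo (log2 fold change -1.41, standard error 0.33, adjusted p = 0.358 by edgeR). Plat, the activator of the C chain, had 24, 49 and 24 counts in REG and 2, 13 and 1 in hADMSCs-Exo (-2.46, 0.76, adjusted p = 0.407), and its estimate ran from -4.21 without hADMSCs-Exo 2 to -2.0 without hADMSCs-Exo 3. The groups did not overlap for either gene, and neither passed by edgeR or limma voom, while Sparc passed by DESeq2 (-1.42, adjusted p = 0.00493). The list's median was -0.048, near that of all genes.

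Against LFG, 5 of 12 tested genes of this list were lower in hADMSCs-Exo at an unadjusted p under 0.05 (3.68% of all genes were lower and 2.30% higher at that threshold), with 0 passing by edgeR, and the median was -0.4. By size of p they were led by Pdgfrl, a receptor-like protein without a kinase (-3.92, standard error 1.05, adjusted p = 0.805), and Thbs1, thrombospondin-1 (-2.93, 1.01, adjusted p = 0.805), and the others, named after their values were seen, were Plat, Sparc and St14. Pdgfrl ran opposite to the members within LFG, with 35, 65 and 166 counts in LFG 1, 2 and 3 against 2 to 20 in the other libraries. Thbs1 followed them, with 321, 367 and 11. Without LFG 3, Thbs1 (-3.43, adjusted p = 0.0198 by edgeR) passed with Plat, Sparc and St14, Klkb1 passed on the higher side and Pdgfrl did not pass (-2.54, adjusted p = 0.0755). Of 12 tested, 4 thus passed as lower, beside 4.50% of all genes. With all libraries Pdgfrl passed by DESeq2 (-3.95, adjusted p = 0.0151).

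Between REG and LFG, Plg, the precursor of plasmin, was higher (0.77, standard error 0.32, adjusted p = 0.433), Pdgfrl (-3.24, 0.93, adjusted p = 0.343), Thbs1 (-2.72, 0.93, adjusted p = 0.392) and St14 were lower, and no gene of the list passed by edgeR. Pdgfrl passed by DESeq2 (-3.25, adjusted p = 0.0149) and by limma voom (-1.93, adjusted p = 0.0421), and Thbs1 by limma voom (-3.29, adjusted p = 0.0159). Without LFG 3 the estimate for Pdgfrl was -1.82 (adjusted p = 0.0674). At an unadjusted p under 0.05, 4.62% of all genes were higher and 6.70% lower in REG. Plg is made by hepatocytes, and its counts ran from 14897 to 42799. Its estimate was thus on the other side of zero from those of Pdgfrl, Thbs1 and St14, and the list's median was -0.46. Without LFG 3, Klkb1 passed as higher and Plat, Sparc, St14 and Thbs1 as lower, and Plg did not pass (0.87, adjusted p = 0.0963 by edgeR). The 4 that passed as lower, of 12 tested, stand beside 6.94% of all genes.

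Of 30 genes for adaptors, kinases and Ras proteins that receptors engage, all were tested, and 0 had an unadjusted p under 0.05 in either comparison of hADMSCs-Exo, beside 10.0% of all genes against REG and 5.98% against LFG. The medians were 0.056 against REG and -0.062 against LFG. Between REG and LFG, 3 were lower at that threshold, beside 6.70% of all genes, the adaptors Nck1 (-0.46, standard error 0.17, adjusted p = 0.394) and Crk (-0.48, 0.19, adjusted p = 0.43) and, named after its value was seen, Stat5a. None passed by edgeR. With all libraries the medians of this list lay within 0.1 of zero in all 3 comparisons, the last being -0.087. Without LFG 3 the median against LFG was -0.12 in hADMSCs-Exo and -0.1 in REG. At an unadjusted p under 0.05, 4 genes were then lower and 1 higher in hADMSCs-Exo, beside 28.5% of all genes. In REG 7 were lower and 1 higher, beside 37.3%. Without LFG 3, Src, named after its values were seen, passed by edgeR as lower in hADMSCs-Exo (-1.83, adjusted p = 0.0436) and in REG (-1.89, adjusted p = 0.0283). That was 1 of 30 genes in each comparison, beside 4.50% and 6.94% of all genes that passed as lower.

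Among 12 genes that turn receptors off, the ubiquitin ligase Cbl was higher in hADMSCs-Exo than in REG (0.63, standard error 0.19, adjusted p = 0.407), with 127 to 139 counts in REG and 160 to 232 in hADMSCs-Exo. It was the 1 gene of the list with an unadjusted p under 0.05 there, beside 5.34% of all genes on the higher side. Against LFG, Cbl was lower in REG (-1.07, 0.27, adjusted p = 0.311), as were the Ras-pathway inhibitor Spred1 (-0.81, 0.27, adjusted p = 0.388) and Cblb, named after its value was seen. These 3 of 12 had an unadjusted p under 0.05, beside 6.70% of all genes on the lower side, and none passed by edgeR. Cbl passed by DESeq2 (-1.06, adjusted p = 0.0367) and by limma voom (-1.23, adjusted p = 0.0103), and Spred1 by limma voom (-1.11, adjusted p = 0.0153). Without LFG 3, Cbl (-1.25, adjusted p = 0.0151) and the adaptor gene Grb10, named after its value was seen, passed by edgeR as lower in REG. These were 2 of 12, beside 6.94% of all genes that passed as lower. Between hADMSCs-Exo and LFG, 0 of the 12 had an unadjusted p under 0.05. Without LFG 3, 4 of the 12 were lower and 1 higher at that threshold, beside 28.5% of all genes. Grb10 alone then passed as lower, beside 4.50% of all genes.

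Early and feedback genes that growth factors induce were examined as a readout known to answer PDGF and many other signals. Between hADMSCs-Exo and REG, 1 of 16 tested had an unadjusted p under 0.05, beside 10.0% of all genes, the transcription factor gene Junb (-0.76, standard error 0.17, adjusted p = 0.358 by edgeR), with 670 to 904 counts in REG and 408 to 473 in hADMSCs-Exo, although the list's median was 0.27. By DESeq2 Junb had an adjusted p of 0.0335 there with a log2 fold change of -0.77, short of the fold threshold. Against LFG, Junb (-0.9, 0.22, adjusted p = 0.805), Fos (-1.95, 0.66, adjusted p = 0.805) and, named after its value was seen, Dusp5 were lower in hADMSCs-Exo, 3 of 17 at that threshold beside 3.68% of all genes, and 15 of 17 estimates were below zero. Fos had 62, 65 and 148 counts in LFG 1, 2 and 3 and 18 to 32 elsewhere, so LFG 3 was highest here, opposite to the receptors. Between REG and LFG 17 of 18 estimates were below zero and 5 had an unadjusted p under 0.05, beside 6.70% of all genes on the lower side, led by the phosphatase gene Dusp5 (-1.68, 0.4, adjusted p = 0.309) and Fos (-2.22, 0.69, adjusted p = 0.38) and including Dusp4, Dusp6 and Jun, named after their values were seen. None passed by edgeR, and the medians were -0.54 and -0.82. By DESeq2 Dusp5 passed in REG (-1.69, adjusted p = 0.0185), and by limma voom Dusp5 (-1.82, adjusted p = 0.0152) and Fos (-1.48, adjusted p = 0.0317). Without LFG 3, when 5.97% and 10.7% of all genes passed in hADMSCs-Exo and REG, Ccnd1 and Spry2 passed as lower and Ier2 as higher in hADMSCs-Exo, and Ccnd1 and Dusp5 as lower in REG, and Fos passed in neither comparison, its estimates shrinking to -0.89 in hADMSCs-Exo and -1.14 in REG.

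The nearest relatives served for comparison: VEGF ligands and receptors and the class III kinases Kit, Csf1r and Flt3, of which 10 of 11 were tested. Vegfc was lower in hADMSCs-Exo than in REG (-0.67, standard error 0.29, adjusted p = 0.493) and than in LFG (-1.21, 0.45, adjusted p = 0.805), and Vegfd was lower than LFG in hADMSCs-Exo (-1.56, 0.39, adjusted p = 0.805) and in REG (-0.97, 0.36, adjusted p = 0.409). Both encode ligands of the lymphatic receptor VEGFR3. No other relative had an unadjusted p under 0.05 and none passed by edgeR, while Vegfd passed by DESeq2 in hADMSCs-Exo against LFG (-1.56, adjusted p = 0.0361). At the unadjusted threshold these were 1 of 10 for hADMSCs-Exo against REG, beside 10.0% of all genes. Against LFG they were 2 of 10 in hADMSCs-Exo, beside 5.98%, and 1 of 10 in REG, beside 11.3%. Without LFG 3, Vegfc passed by edgeR as lower in hADMSCs-Exo than in LFG (-1.51, adjusted p = 0.0304). It was 1 of 10 tested, beside 4.50% of all genes that passed as lower. The relatives' medians were -0.35, -0.35 and -0.22 in the comparisons hADMSCs-Exo with REG, hADMSCs-Exo with LFG and REG with LFG, where those of the members were -0.49, -1.08 and -0.81, and the difference between the lists was not tested.

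**Figure D5:**
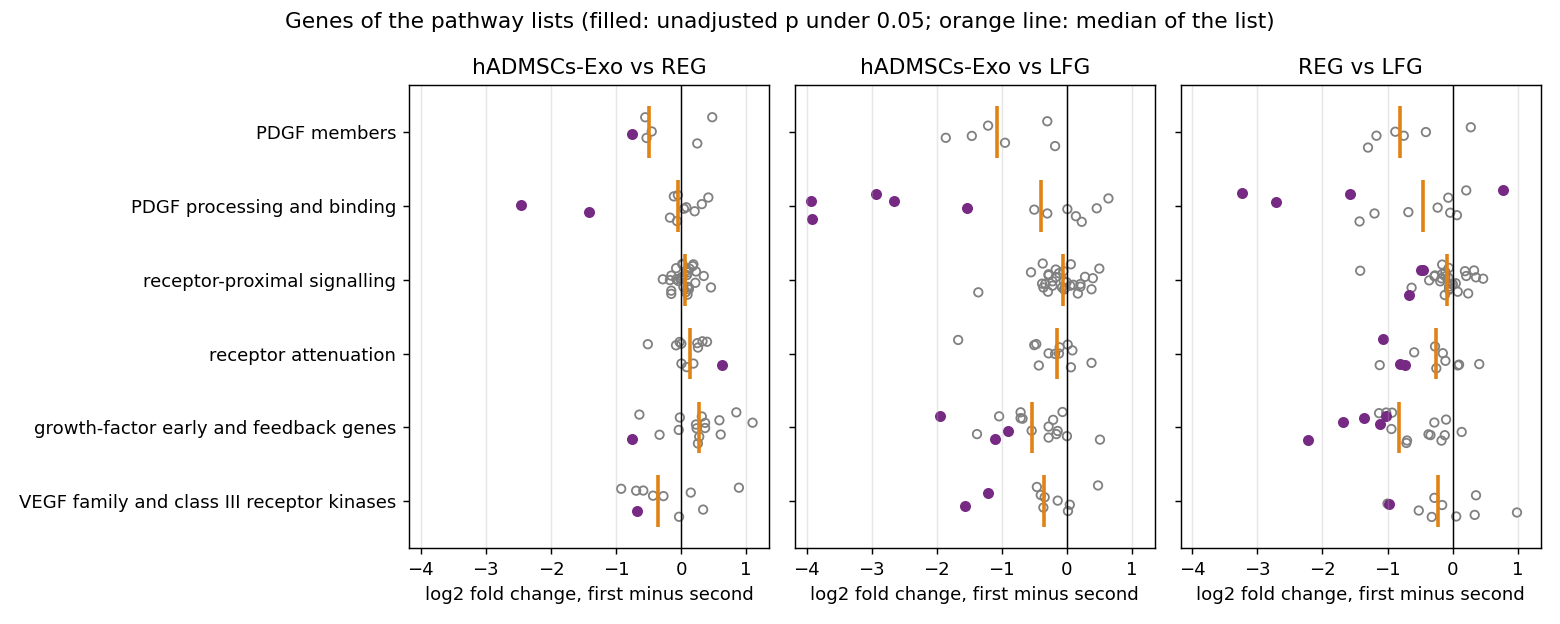
Log2 fold changes (horizontal axis) of every tested gene in the members and the 5 lists, one panel a comparison; filled points have an unadjusted p under 0.05 and orange lines are medians. Points of the processing and binding list reach -3.93 against LFG, while the 30 signalling genes gather around zero.

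The genes whose profile over the 9 libraries was closest to each member were found by the root mean square difference of log2 CPM deviations, out of 12754 genes. For Pdgfrb they were Sfxn3 (0.196), Tuba1a (0.244) and Pam (0.251), for Pdgfra Ltbp2 (0.268), Igsf10 (0.278) and Scd2 (0.287). Pdgfb was followed most closely by Pik3cd (0.158), Csf2rb (0.17) and Emb (0.175), Pdgfc by Abcc5 (0.236), Tagap (0.264) and Klf6 (0.264), Pdgfd by Cd200 (0.244) and Ltbp3 (0.259) and Pdgfa by Lactb2 (0.222), Ebag9 (0.229) and Psmg2 (0.231). Among the members themselves the closest pairs were Pdgfb with Pdgfc (0.377) and Pdgfra with Pdgfrb (0.477), while Pdgfa was at least 1.03 from each of the others. Without LFG 3, an alternative chosen after the data had been seen, 2 of the 18 nearest genes (3 a member) remained, Emb for Pdgfb among them. The member pairs stayed about as close, at 0.357 for Pdgfb with Pdgfc and 0.445 for Pdgfra with Pdgfrb, and Pdgfd came nearer to Pdgfra (0.411) and Pdgfrb (0.415) than these were to each other. Pdgfa was then at least 0.832 from the others.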

How the data were processed

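RNA was extracted from mouse liver with Trizol, made into libraries with a NEBNext Ultra kit and read on an Illumina NovaSeq. The authors trimmed reads with cutadapt 1.15, aligned them to GRCm38 with HISAT2 2.0.5 and deposited counts per gene from HTSeq 0.9.1 beside FPKM, per the submitters' processing notes, which also name DESeq 1.30.0; the strand setting is not given in the sources used here. The deposited FPKM equalled those recomputed from the counts and the deposited gene lengths to a relative difference of 9.19e-07. The hADMSCs group was not analysed here.

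Counts were tested as deposited with edgeR 4.0.16 (filterByExpr, TMM factors, quasi-likelihood test on the 6 libraries of each comparison) in R 4.3.3, and p-values were adjusted by Benjamini-Hochberg over all genes tested. A gene passed at an adjusted p under 0.05 with a log2 fold change of 1 or more in size. FPKM served only to compare levels between genes and for the receptor ratio. CPM used TMM-scaled totals. Exact permutation tests used scipy 1.17.1. The edgeR fit alone was also run on simulated counts with known fold changes, and the outcome is not reported here. Alternatives were DESeq2 1.42.0, limma 3.58.1 (voom with quality weights), RLE factors, other count filters, all 9 libraries in one fit, a replicate block, and each library left out.

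The members and lists were chosen with earlier results of these data known. Named genes were the members, up to 2 higher and 2 lower genes of each list by unadjusted p, and the 3 genes nearest to each member in profile. Markers were reported as totals and where at 0. Some genes that this rule names are not reported here. Promoter windows came from RefSeq. Deviations of same-numbered libraries from their group means had correlations of 0.101, 0.308 and 0.18 between hADMSCs-Exo and LFG. They were 0.159, 0.00939 and 0.0336 between hADMSCs-Exo and REG and 0.415, -0.202 and 0.305 between REG and LFG. Libraries of different numbers were not compared, so these values cannot show whether the replicate numbers mark a pairing.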

Additional observations from a re-analysis of the deposited data

How the results depend on the processing

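Leaving out 1 library in turn gave 0 to 0, 0 to 3 and 0 to 2 members that passed for exosomes against PBS, exosomes against LFG and REG against LFG, and 1 to 3, 0 to 5 and 0 to 5 at an unadjusted p under 0.05, with the highest counts against LFG reached without LFG 3. The unadjusted count was 0 for hADMSCs-Exo against REG with all 9 libraries in one fit, and limma voom gave 4 in each comparison with LFG and passed 3 members in REG. The difference between groups in the log2 receptor ratio ranged from -0.46 to 0.0077, -0.02 to 0.76 and 0.18 to 0.94 with 1 library left out (0.76 and 0.94 without LFG 3), turning sign without hADMSCs-Exo 2 against REG (0.0077) and, against LFG, without hADMSCs-Exo 1 (-0.02) and LFG 1 (-9e-07). Small estimates also turned sign: Pdgfa in hADMSCs-Exo against LFG without LFG 3 (0.065) or hADMSCs-Exo 2 (0.016), Pdgfb there without LFG 1 (0.13), and Pdgfrb in REG against LFG without LFG 1 (0.011). With 1 library left out these ranged from -0.37 to 0.065, from -0.73 to 0.13 and from -0.9 to 0.011. The cause was not tested. With the replicate number as a block, Pdgfrb in REG against LFG became 0.078, and no member passed in any comparison; Pdgfrb in hADMSCs-Exo against REG was -0.74 (edgeR, adjusted p = 0.404). Over all alternatives for that last result the log2 fold change stayed between -0.93 and -0.66 and the adjusted p between 0.154 and 1.0. Of the nearest genes, 2 were kept without LFG 3. Pdgfb and Pdgfd had fewer than 50 counts in several libraries, which limits their precision.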
